A study of Mus musculus with 6 samples.

Results

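The neutrophil genes followed in the lung were S100a8, S100a9, Csf3r, Retnlg, Trem1, Fpr1 and Fpr2, which are carried by mature cells, and Ngp, Camp and Ltf, whose mRNAs are made by neutrophil precursors for the proteins of their granules. They were chosen by name, with earlier results of these data known. All 10 were found among the 22564 protein-coding genes of the mRNA table. The question was whether the mRNAs of mature neutrophils and those of granule precursors moved together in the lung after blast. Lungs of male C57BL/6 mice aged 8 to 10 weeks were compared between a control group and a group with primary blast lung injury (PBLI). Both groups were anesthetized, and the PBLI mice received a blast wave of 0.5 bar from a shock tube to the chest and were examined 6 h later. Each library was total RNA, depleted of ribosomal RNA, from the right upper lobes of 2 mice pooled, with 3 libraries per group. The control libraries are called Control 1, Control 2 and Control 3, and the PBLI libraries G3, G4 and G5 after their columns.

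Neutrophils are short-lived phagocytes of the blood that enter injured tissue within hours. They mature in the bone marrow, where promyelocytes first fill primary granules (myeloperoxidase, elastase) and the next stages fill secondary granules (lactoferrin, cathelicidin, neutrophilic granule protein). Granule proteins stay in the mature cell after most of their mRNA is gone, whereas the mRNAs of S100 proteins and of receptors for growth factors, bacterial peptides and complement are held by the mature cell. The lung holds many neutrophils in its capillaries even at rest. A level in whole tissue cannot tell apart more cells of a type from more RNA per cell.

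Values are FPKM, fragments scaled to transcript length and library size. The control libraries held 8390830, 8367116 and 9704378 fragments in protein-coding genes, and the steps between low FPKM values put G3, G4 and G5 at 1.32, 1.24 and 1.61 times the depth of Control 1. Each library had 16010 to 16257 genes above 0. Markers of alveolar epithelium were present at a summed level of 9599 to 10653 FPKM in the control libraries and 12616 to 13332 FPKM in the PBLI libraries, and endothelial markers at 921 to 1002 and 747 to 884 FPKM (two-sided exact permutation test, p = 0.1 each, the smallest that 3 against 3 allows). Their part in the results was not tested. G5, the deepest library, stood apart from G3 and G4. For the 7 genes of mature cells it lay closer to the control libraries than to G3 and G4. It was below all 3 control libraries for 9 of 11 monocyte markers, 5 of 5 B cell markers and 5 of 5 T cell markers. The share of all genes below them in G5 was not counted, so these counts have no share beside them. G5 was the only library with the epithelial stress gene Sprr1a above 1 FPKM (39.8 FPKM). It received the lowest weight (0.28) when libraries were weighted by their fit. The tests of the 10 genes are therefore given with and without G5.

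All 7 genes of mature cells were higher in G3 and in G4 than in any control library. Of the 3 precursor genes none was above the control libraries in G3, and 1, Camp, was in G4. In G5 only S100a8, S100a9 and Retnlg were above all control libraries, by a small margin. No member passed an adjusted p of 0.05 with all 6 libraries (0 of 10, against 2.08% of all 14760 genes tested), while 5 of 10 passed at least 2-fold with an unadjusted p of at most 0.05, all of them higher: S100a8, S100a9, Csf3r, Retnlg and Trem1 (1.38% of all genes passed upwards). The same 5 were those with an unadjusted p under 0.05 (9.15% of all genes, upwards). With G5 left out, 5 of the 7 genes of mature cells and 0 of the 3 precursor genes were higher at adjusted p under 0.05 (2.12% of all genes). These were again S100a8, S100a9, Csf3r, Retnlg and Trem1. G5 was set apart in part by its values for neutrophil genes, so the calls without it are not independent support for a difference. Without both G5 and Control 1, an alternative chosen after seeing the data, 5 of the 10 were called (1.89% of all genes higher). Differences and their tests are from limma on log2(FPKM + 0.5), adjusted over all genes by Benjamini and Hochberg's method, and the log2 difference is PBLI minus control.

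S100a8 and S100a9 encode the 2 subunits of calprotectin, the most abundant cytosolic protein of neutrophils. S100a8 (ENSMUSG00000056054, chr3:90668978-90670035, plus strand, GRCm38) was at 135, 93.6 and 133 FPKM in Control 1, 2 and 3 and at 1115, 1011 and 186 FPKM in G3, G4 and G5. The groups did not overlap, but G5 lay far closer to the control libraries than to G3 and G4. The means were 120 ± 23.2 FPKM in the control group and 771 ± 509 FPKM in the PBLI group (SD, n = 3 each). Its log2 difference was 2.32 with an SE of 0.63 (limma, adjusted p = 0.115). Without G5 it was 3.15 with an SE of 0.17 (limma, adjusted p = 0.00136).

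S100a9 (ENSMUSG00000056071, chr3:90692632-90695721, minus strand), the neighbour of S100a8, was at 113, 49.3 and 94.2 FPKM in Control 1, 2 and 3 and at 884, 729 and 142 FPKM in G3, G4 and G5. Its order over the PBLI libraries was that of S100a8, again with no overlap between groups. The log2 difference was 2.47 with an SE of 0.67 (limma, adjusted p = 0.115), and without G5 it was 3.30 (limma, adjusted p = 0.00722). The ratio of S100a9 to S100a8 FPKM came to 0.843, 0.527 and 0.708 in Control 1, 2 and 3 and to 0.793, 0.721 and 0.761 in G3, G4 and G5. The ranges of this ratio overlap, so the subunits kept within their control proportion while both levels differed several-fold between libraries.

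Retnlg encodes resistin-like gamma, a secreted protein made in mouse by neutrophils. Retnlg (ENSMUSG00000022651, chr16:48872621-48874496, plus strand) was at 12.6, 9.48 and 15.1 FPKM in Control 1, 2 and 3 and at 140.2, 99.1 and 20.3 FPKM in G3, G4 and G5. Against the control mean this was 11.3-fold in G3, 8.0-fold in G4 and 1.64-fold in G5. These ratios stood next to those of S100a8 (9.26, 8.40 and 1.55) and S100a9 (10.3, 8.51 and 1.66). The log2 difference of Retnlg was 2.39 with an SE of 0.64 (limma, adjusted p = 0.113), and without G5 it was 3.22 (limma, adjusted p = 0.00261).

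**Figure D1:**
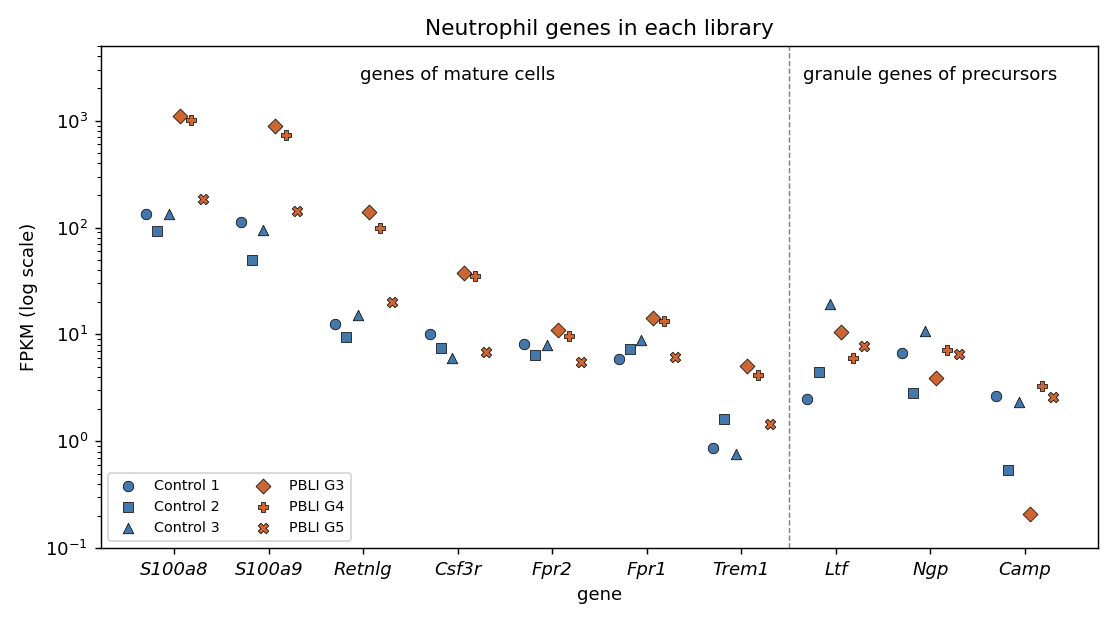
FPKM (log axis) of each gene in the 3 control libraries (blue) and the 3 PBLI libraries (orange), 1 point per library, with no summary drawn. G3 and G4 lie above the control points for the 7 genes on the left, from S100a8 (1115 and 1011 FPKM) to Trem1 (5.09 and 4.21 FPKM), while G5 falls near or among them, and the points of Ltf, Ngp and Camp are mixed.

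Csf3r is the receptor for granulocyte colony-stimulating factor, which drives the making and release of neutrophils. Csf3r (ENSMUSG00000028859, chr4:126024550-126044440, plus strand) was at 9.99, 7.43 and 5.96 FPKM in Control 1, 2 and 3 and at 37.5, 35.3 and 6.86 FPKM in G3, G4 and G5. G3 and G4 were clear of the control libraries, and G5 lay within their range. Csf3r had a log2 difference of 1.41 with an SE of 0.59 (limma, adjusted p = 0.255). Without G5 it was 2.18 with an SE of 0.20 (limma, adjusted p = 0.00677). A non-coding transcript of Csf3r, listed apart and sharing exons with it, was at 0.762, 0.558 and 1.21 FPKM in the control libraries and at 3.04, 2.88 and 0.480 FPKM in G3, G4 and G5. It has the same order over the PBLI libraries, but reads of the shared exons cannot be assigned to one transcript with certainty.

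Trem1 is an activating receptor that amplifies inflammatory signals in neutrophils and monocytes. Trem1 (ENSMUSG00000042265, chr17:48232768-48246924, plus strand) was at 0.870, 1.60 and 0.755 FPKM in Control 1, 2 and 3 and at 5.09, 4.21 and 1.47 FPKM in G3, G4 and G5. G5 lay between the control libraries, below Control 2. For Trem1 the log2 difference was 1.28 with an SE of 0.41 (limma, adjusted p = 0.165), and 1.74 without G5 (limma, adjusted p = 0.0297). Trem1 rested on 23 to 44 fragments per control library, against 158 to 256 for S100a8, and its control values varied more (CV of 42.7% against 19.3%).

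Fpr1 and Fpr2, adjacent genes for receptors of formylated peptides from bacteria and mitochondria, differed least among the 7. Fpr1 (ENSMUSG00000045551, chr17:17876471-17883940, minus strand) was at 5.93, 7.25 and 8.88 FPKM in Control 1, 2 and 3 and at 14.2, 13.3 and 6.19 FPKM in G3, G4 and G5. Fpr2 (ENSMUSG00000052270, chr17:17887824-17893952, plus strand) was at 8.2, 6.36 and 8.04 FPKM in the control libraries and at 10.9, 9.63 and 5.55 FPKM in G3, G4 and G5. For both genes G3 and G4 were above the control libraries, and G5 was within their range for Fpr1 and below all 3 for Fpr2. The log2 difference of Fpr1 was 0.51 with an SE of 0.31 (limma, adjusted p = 0.397), and 0.88 without G5 (limma, adjusted p = 0.05004, just short of the threshold). That of Fpr2 was 0.15 with an SE of 0.25 (limma, adjusted p = 0.769), and 0.43 without G5 (limma, adjusted p = 0.186). In the table Fpr2 shares a merged locus with Fpr3 and Gm7535, which are at or near 0, so fragments of these related genes could be split between them.

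The precursor genes showed another pattern, and no member of it separated the groups. Ngp, neutrophilic granule protein (ENSMUSG00000032484, chr9:110419747-110423012, plus strand), was at 6.78, 2.85 and 10.7 FPKM in Control 1, 2 and 3 and at 3.94, 7.15 and 6.55 FPKM in G3, G4 and G5. All 3 PBLI values fell inside the control range. For Ngp the log2 difference was -0.06 with an SE of 0.43 (limma, adjusted p = 0.954), and -0.15 without G5 (limma, adjusted p = 0.897).

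Camp encodes the cathelicidin CRAMP, an antimicrobial peptide of secondary granules. Camp (ENSMUSG00000038357, chr9:109847379-109849617, minus strand) was at 2.67, 0.537 and 2.33 FPKM in Control 1, 2 and 3 and at 0.208, 3.32 and 2.58 FPKM in G3, G4 and G5. The control values rested on 10, 2 and 10 fragments. The exact Poisson interval of the 2 fragments in Control 2 reached from 0.065 to 1.94 FPKM at 95% confidence, counting error only. G4 was above the control range and G3 below it. For Camp the log2 difference was -0.05 with an SE of 0.69 (limma, adjusted p = 0.976), so only a large change could have been seen at this depth. Without G5 it was -0.35 (limma, adjusted p = 0.841).

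Ltf encodes lactoferrin, the iron-binding protein of secondary granules, which glandular epithelium also makes. Ltf (ENSMUSG00000032496, chr9:111019271-111042767, plus strand) was at 2.47, 4.45 and 19.2 FPKM in Control 1, 2 and 3 and at 10.6, 6.01 and 7.80 FPKM in G3, G4 and G5. The PBLI values lay inside the control range, which spanned 7.75-fold. For Ltf the log2 difference was 0.35 with an SE of 0.63 (limma, adjusted p = 0.793), and 0.36 without G5 (limma, adjusted p = 0.829). Control 3 was the highest control library for Ngp and Ltf, and Control 1 for Camp. The FPKM ratio of Ltf to Ngp ran from 0.365 to 2.68 over the 6 libraries, a wider range than that of the S100 pair. That of Camp to Ngp ran from 0.0527 to 0.465, which the few fragments of Camp leave uncertain.

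**Figure D2:**
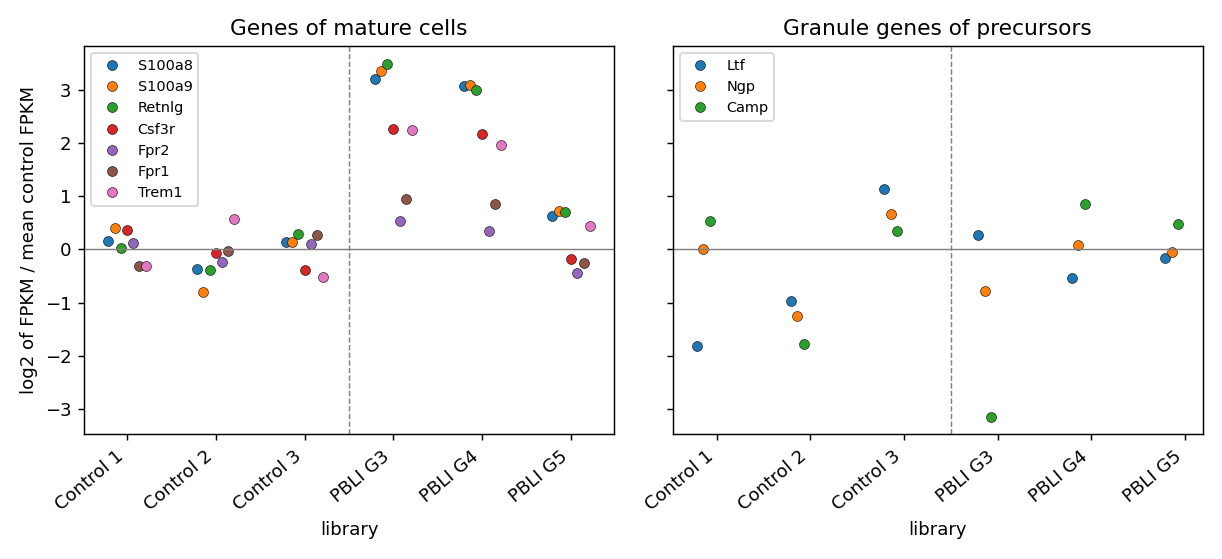
Log2 of FPKM over the mean control FPKM of the same gene (y axis) in each library (x axis), 1 point per gene, for the 7 genes of mature cells (left) and the 3 precursor genes (right). S100a8, S100a9 and Retnlg lie highest in G3 and G4, and the precursor genes scatter about the control mean in both groups.

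Set side by side, the mean log2(FPKM + 0.5) of the 7 genes of mature cells stood at 3.90, 3.62 and 3.85 in Control 1, 2 and 3 and at 6.02, 5.81 and 4.04 in G3, G4 and G5. That of the 3 precursor genes stood at 2.03, 1.37 and 3.10 in Control 1, 2 and 3 and at 1.71, 2.52 and 2.5 in G3, G4 and G5. The level of precursor genes minus that of mature genes came to -1.86, -2.25 and -0.75 in Control 1, 2 and 3 and to -4.32, -3.28 and -1.54 in G3, G4 and G5. G3 and G4 were below all control libraries in this measure, and G5 lay between Control 1 and Control 3. The group means were -1.62 ± 0.78 and -3.05 ± 1.40 (SD, n = 3 each), with no test since the genes were chosen with results known. Among single genes, the median log2 difference was 1.41 over the 7 and -0.05 over the 3, beside -0.02 over all genes tested. Every PBLI library was above every control library for 3 of the 7 genes of mature cells and 0 of the 3 precursor genes, as was the case for 13.3% of all genes. G3 and G4 were both above every control library for 7 of 7 and 0 of 3, against 20% of all genes, and G5 was above them for 3 of 7 and 0 of 3, against 31.9% of all genes.

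**Figure D3:**
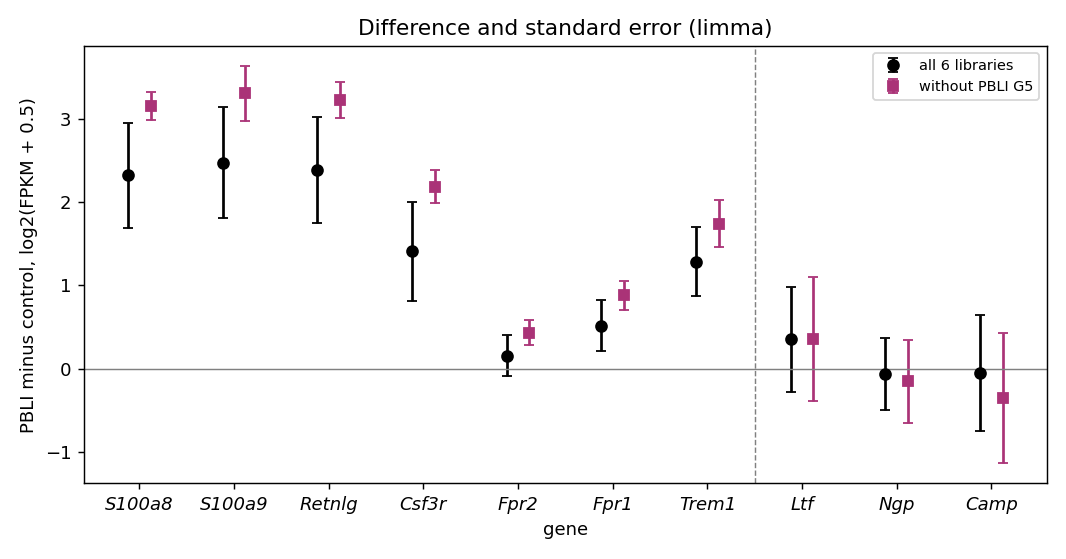
PBLI minus control on the log2(FPKM + 0.5) scale for each gene, with bars of 1 SE from limma, for all 6 libraries (black circles) and without G5 (purple squares). Leaving out G5 moves the 7 genes on the left upwards with shorter bars for each (S100a8 from 2.32 to 3.15), and leaves Ltf, Ngp and Camp about 0 with longer bars.

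The starts of these genes were looked at for letters known from myeloid promoters, since the genes of mature cells moved together and those of precursors did not move with them. C/EBP factors and PU.1 are regulators of granulocyte genes. The windows run from 250 bases before to 50 after each start (RefSeq, GRCm38.p6), and all 10 genes matched the table. Shown are the S100 pair, Csf3r and, of the precursor genes, Ngp and Ltf. Capitals mark a C/EBP word (TTGCNNAA, or TTNNGCAA for the other strand), a PU.1 word (GAGGAAG, or CTTCCTC for the other strand) or the word TATAAA, that of a TATA box (on the gene's strand only). The windows are chr3:90668821-90669120 (plus strand), chr3:90695672-90695971 (minus strand), chr4:126024409-126024708 (plus strand), chr9:110419558-110419857 (plus strand) and chr9:111019042-111019341 (plus strand), in that order.
S100a8: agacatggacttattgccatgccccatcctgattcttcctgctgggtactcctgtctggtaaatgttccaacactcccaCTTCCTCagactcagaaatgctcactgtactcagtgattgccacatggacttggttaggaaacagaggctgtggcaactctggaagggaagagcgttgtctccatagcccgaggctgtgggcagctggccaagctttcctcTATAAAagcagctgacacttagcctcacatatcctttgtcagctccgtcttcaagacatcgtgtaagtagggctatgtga
S100a9: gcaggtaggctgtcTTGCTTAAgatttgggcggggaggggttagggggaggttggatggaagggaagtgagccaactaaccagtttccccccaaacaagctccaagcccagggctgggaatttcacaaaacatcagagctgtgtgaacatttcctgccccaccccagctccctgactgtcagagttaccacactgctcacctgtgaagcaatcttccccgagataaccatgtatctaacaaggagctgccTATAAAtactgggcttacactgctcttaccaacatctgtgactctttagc
Csf3r: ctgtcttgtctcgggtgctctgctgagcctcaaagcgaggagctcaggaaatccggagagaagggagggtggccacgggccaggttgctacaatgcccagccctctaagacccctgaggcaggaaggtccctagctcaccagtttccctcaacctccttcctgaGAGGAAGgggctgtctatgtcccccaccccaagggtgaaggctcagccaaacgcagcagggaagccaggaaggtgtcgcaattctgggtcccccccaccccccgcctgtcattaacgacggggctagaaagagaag
Ngp: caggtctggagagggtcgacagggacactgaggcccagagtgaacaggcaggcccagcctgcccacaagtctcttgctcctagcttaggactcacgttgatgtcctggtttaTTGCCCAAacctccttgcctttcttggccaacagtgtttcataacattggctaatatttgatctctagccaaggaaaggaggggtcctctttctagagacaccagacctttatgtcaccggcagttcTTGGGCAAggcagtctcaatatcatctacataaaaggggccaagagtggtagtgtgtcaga
Ltf: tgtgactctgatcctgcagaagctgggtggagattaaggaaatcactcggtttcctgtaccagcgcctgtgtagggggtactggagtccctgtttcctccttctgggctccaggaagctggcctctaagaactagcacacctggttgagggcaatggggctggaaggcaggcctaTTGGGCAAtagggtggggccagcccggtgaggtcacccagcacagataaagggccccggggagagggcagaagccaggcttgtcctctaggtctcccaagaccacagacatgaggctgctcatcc

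A C/EBP word stood in 4 of the 10 windows (S100a9, Retnlg, Ngp with 2, and Ltf), against 10.8% of 32851 promoter windows of the mouse. Of these genes, S100a9 and Retnlg were among the highest in G3 and G4, and Ngp and Ltf lay within the control range there. A PU.1 word stood in 2 of 10 (S100a8 and Csf3r), against 13.63% of all windows, and TATAAA in 4 of 10 (S100a8, S100a9, Fpr1 and Fpr2), against 8.319%. Counted from the RefSeq start, TATAAA began at -30 in S100a8, at the start itself in S100a9, at -227 in Fpr1 and at -130 in Fpr2. By this start, of these 4 only S100a8 had it where a TATA box usually lies. The gene position given earlier for S100a8 begins upstream of its RefSeq start, so this place depends on the start used. The C/EBP word thus occurred in genes of mature cells and in precursor genes. The other words were in none of the 3 precursor windows, too few at the shares over all windows to set precursor genes apart. A match is a description of the letters and not a binding site.

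Other markers of the same cells were read next. Cxcr2, the chemokine receptor of mature neutrophils, was at 3.86, 2.91 and 2.87 FPKM in the control libraries and at 29.2, 24.7 and 5.29 FPKM in G3, G4 and G5 (limma, log2 difference 2.14, adjusted p = 0.109, and 2.89 without G5, adjusted p = 0.00192). This is the order seen for S100a8. Ly6g, the surface antigen used to sort mouse neutrophils, was listed at 0 in 5 libraries and at 1.37 FPKM in G3. The markers of early precursors were barely present: Elane, Ms4a3, Ctsg, Prtn3 and Mpo, from the promyelocyte stage, were each under 1 FPKM in every library. Of the 7 primary granule genes only 2, Mpo and Prtn3, reached 0.5 FPKM, and neither passed the test.

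Of 85 further neutrophil genes tested in 7 lists, 6 were higher and 1 lower at adjusted p under 0.05 (1.15% and 0.928% of all genes), and 32 were called without G5, 3 without Control 1, 2 without Control 3, 1 without G3 or without G4 and 0 without Control 2. Among 13 genes of secondary and tertiary granules, 1 passed. This was Mmp8, neutrophil collagenase, at 1.31, 1.09 and 2.07 FPKM in the control libraries and at 31.9, 22.5 and 5.65 FPKM in G3, G4 and G5 (limma, log2 difference 3.09, adjusted p = 0.0418). Mmp8 is stored in the same granules as lactoferrin, yet all 3 PBLI libraries stood above the control range for Mmp8, and none did for Ltf. The median log2 difference of these 13 genes was 0.85, and 4 were higher without G5.

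Among 17 surface receptors 3 rose: Il1r2, the decoy receptor of interleukin 1 (log2 difference 2.88, limma, adjusted p = 0.0166), Clec4e, the lectin Mincle (1.82, adjusted p = 0.0290), and C5ar1, the receptor of complement C5a (1.11, adjusted p = 0.0429). Il1r2 was at 0.180, 0.725 and 0.470 FPKM in the control libraries and at 10.1, 6.89 and 3.63 FPKM in G3, G4 and G5. G5 was thus the lowest PBLI library here too, but well above the control range. The median log2 difference of the 17 was 1.10, and 11 were higher without G5.

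Among 20 cytosolic and secreted proteins 2 rose. Slpi, an inhibitor of elastase, was at 4.71, 4.26 and 4.70 FPKM in the control libraries and at 18.5, 15.7 and 10.5 FPKM in G3, G4 and G5 (limma, log2 difference 1.57, adjusted p = 0.0163). Il1f9, interleukin 36 gamma, had a log2 difference of 2.58 (limma, adjusted p = 0.0171). Epithelium also makes both. The median of the 20 was 1.09, and 11 were higher and 1 lower without G5. G5 was above all control libraries for 10 of these 20, 9 of the 17 receptors and 6 of the 13 granule genes, against 31.9% of all genes. It was below all of them for 3, 5 and 2 genes of these lists, in that order.

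The 6 genes of the NADPH oxidase had a median log2 difference of 0.12 with none called, and without G5 one of 0.52 with 3 called higher. The 8 transcription factors of neutrophil development had a median of 0.17 with none called, and 0.26 with none called without G5. Of 19 signals that recruit or release neutrophils, 1 fell: Cxcl12, which retains neutrophils in the marrow, from 54.5 ± 4.74 to 25.6 ± 1.70 FPKM (SD, n = 3 each, limma, log2 difference -1.07, adjusted p = 0.00607). Cxcl12 was low in all 3 PBLI libraries, G5 included (23.8 FPKM). In Cxcl1 and Lcn2, chosen after their values were seen, G5 was the highest library. Cxcl1, a ligand of Cxcr2, was at 5.06 FPKM in G5 against 2.54 and 1.58 in G3 and G4 and at most 0.599 in the control libraries (limma, adjusted p = 0.0636). Lcn2, lipocalin of secondary granules and of airway epithelium, was at 166 FPKM in G5 against 99.7 and 88.7 in G3 and G4 and 46.8 to 55.9 in the control libraries (limma, adjusted p = 0.0531). The low values of G5 for S100a8 and its companions were thus not shared by Cxcl1 and Lcn2.

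**Figure D4:**
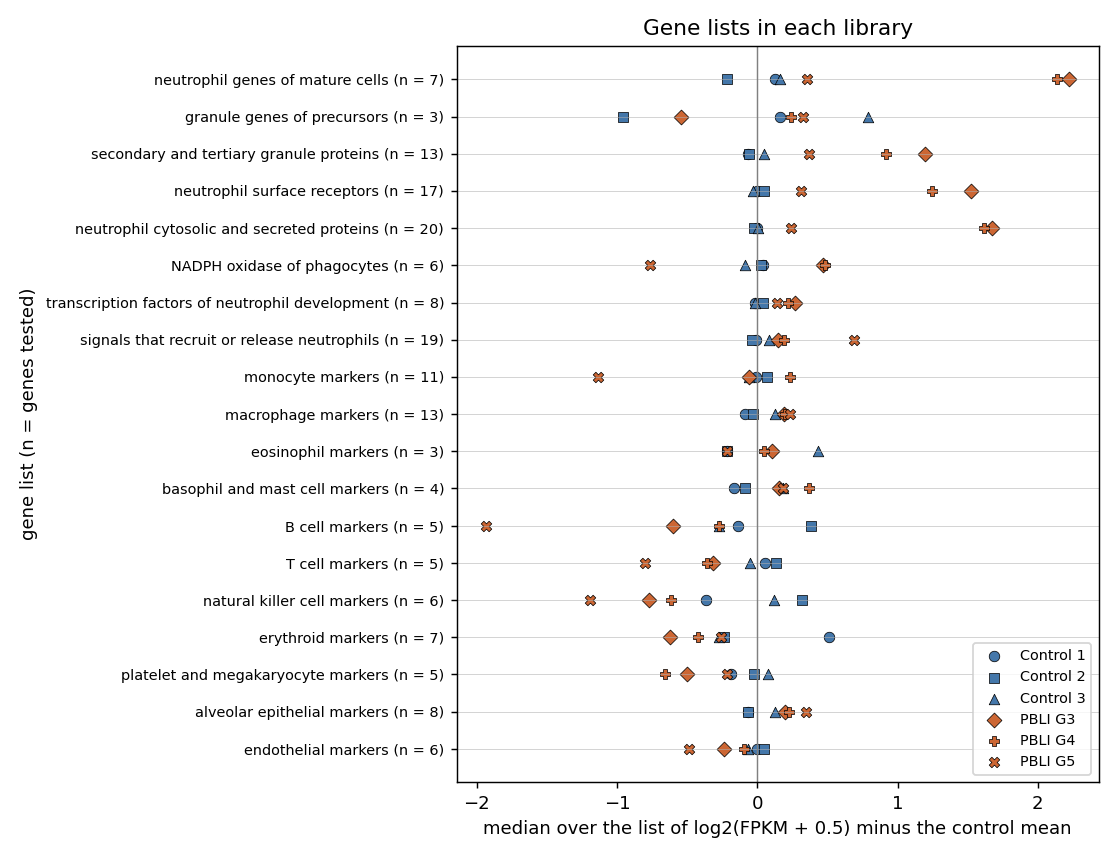
Median over each gene list of log2(FPKM + 0.5) minus the control mean of the gene (x axis), in each library, for the lists with 3 or more tested genes (y axis), with control libraries in blue and PBLI libraries in orange. G3 and G4 stand at 2.23 and 2.14 for the 7 neutrophil genes of mature cells, where G5 is at 0.36, and G5 is lowest for the monocyte (-1.14) and B cell (-1.93) markers.

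Markers of other cells moved with some of these libraries. Of 11 monocyte markers 1 was higher in the PBLI group, Cd14, which neutrophils also carry (limma, log2 difference 1.32, adjusted p = 0.00986), and the summed level was 445 to 491 FPKM in the control libraries and 483 to 565 FPKM in the PBLI libraries. The median log2 difference of the 11 was -0.27, with 2 lower at 2-fold and p of at most 0.05, and without G5 it was 0.12 with 3 called higher and 1 lower. Ccr2 and F13a1, monocyte genes chosen after their values were seen, were above all control libraries in G3 and G4 and below them in G5. Of the 11 markers 4 were above all control libraries in both G3 and G4, against 20% of all genes. The median of the 11 against the control mean was -0.06 in G3 and 0.23 in G4 on the log2 scale. Ccr2 was at 20.9, 20.8 and 19.6 FPKM in the control libraries and at 56.6, 58.6 and 9.02 FPKM in G3, G4 and G5. The part of monocytes in the values of Trem1, Fpr1 and Fpr2, which they also express, was not tested. Eosinophil markers were at or near 0, with a summed level of at most 1.41 FPKM in any library. Summed natural killer cell markers were 32.1 to 50.3 FPKM in the control libraries and 13 to 21.0 FPKM in the PBLI libraries, and summed T cell markers 16.8 to 19.6 and 9.47 to 16.2 FPKM (exact permutation test, p = 0.1 each). Ncr1, an activating receptor of natural killer cells, was the 1 gene called among natural killer and T cell markers (2 natural killer genes without G5, both lower), with a log2 difference of -1.40 (limma, adjusted p = 0.0290) and of -1.26 without G5 (limma, adjusted p = 0.0351). Summed B cell markers were 54.6 to 89.2 and 15.0 to 59.7 FPKM (exact permutation test, p = 0.3).

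The genes most like the mean profile of the 7 genes of mature cells, by mean absolute difference in log2 units over the 6 libraries among 13068 candidates, were Nlrp12 (0.101), Ccr1 (0.168), Asprv1 (0.176), F13a1 (0.192) and Irg1 (0.192). Nlrp12 was at 0.782, 0.442 and 0.444 FPKM in the control libraries and at 3.89, 3.62 and 0.730 FPKM in G3, G4 and G5, and Ccr1 at 5.08, 3.40 and 3.40 and at 22.5, 20.6 and 6.5 FPKM. Both were high in G3 and G4 alone, with G5 at or a little above the control range. The nearest to the precursor profile were Ttc39c (0.20), Vps45 (0.204), Rrp9 (0.230), Ccl2 (0.234) and Pus10 (0.240). Ngp was at 0.123 from its own group's profile, but Camp and Ltf were at 0.547 and 0.605, farther than each of these 5 genes. All 7 genes of mature cells were also farther from their own profile than its 5 nearest genes, from 0.231 (Csf3r) to 0.684 (Fpr2).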

How the data were processed

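Lungs of control and PBLI mice were sequenced as 3 libraries per group, each a pool of 2 mice, and p-values measure the spread between pools. The authors trimmed reads with cutadapt (1.9.3), aligned them with hisat2 (2.0.4) to mm10 and deposited FPKM per protein-coding gene from cuffdiff (2.2.1). How libraries were scaled is not stated. The labels also list CASAVA (1.8) and STAR (2.5.1b). The deposited count columns of the control libraries are a signal, fragment counts scaled by the authors, and served only for depth: 87.4 to 89.0% of values were whole multiples of 1 fragment within 0.01. Depth of the PBLI libraries was read from low FPKM values. Another 21 columns of per-sample values were not used, and 1 gene line holds no values and is not reported here.

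FPKM was tested with limma (3.58.1, mean-variance trend, R 4.3.3) as log2(FPKM + 0.5), which understates changes of low genes, over the 14760 of 22564 genes that reached 0.5 FPKM in any library. Calls were adjusted p under 0.05 (Benjamini and Hochberg) or at least 2-fold with p of at most 0.05. The fit was tested on simulated data. These had independent genes and no library that stood apart, so that test does not cover a library like G5. Single sums per library were compared by a two-sided exact permutation test. Members and lists were chosen with earlier results of these data known. Named besides the members were, of each list, up to 4 called genes with the smallest p (2 with the smallest p where none passed, of which only those that a result turns on are printed), markers of neutrophils and precursors, the 5 genes most like each profile at a mean of 1 FPKM or more, and genes said to be chosen after their values were seen. Alternatives changed the pseudocount, filter, scaling, weights and trend and left out libraries. Tables and plots were made in Python (3.11.15) with pandas (2.3.3) and numpy (2.4.6), exact tests with scipy (1.17.1), plots with matplotlib (3.10.9). Gene positions are from GENCODE on GRCm38 (mm10).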

Additional observations from a re-analysis of the deposited data

How the results depend on the processing

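G5 decided the calls. With all 6 libraries none of the 10 members passed an adjusted p of 0.05 in limma, with 5 at an unadjusted p under 0.05. Leaving out 1 library gave 0 to 5, with 5 only without G5, weighting the libraries gave 6, and leaving out G5 and Control 1, the lowest-weighted of each group and an alternative chosen after seeing the data, gave 5. The cause was not tested. The share of all genes called with weights was not counted, so the calls with weights have no share beside them. At 2-fold with p of at most 0.05 the 5 members became 3 to 5, with 3 without G3 or without G4. The 7 calls in the other neutrophil lists became 4 with no filter, 4 without the trend, 35 with weights, 33 without G5 and Control 1, and 0 to 32 when 1 library was left out (0 without Control 2, 1 without G3 or G4, 2 without Control 3, 3 without Control 1, 32 without G5).

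Precursor minus mature level, PBLI minus control, was -1.43 on the log2 scale, -2.18 to -0.79 when 1 library was left out, and kept its direction under each alternative run. The precursor genes had no stable sign: when 1 library was left out Ngp ran from -0.54 to 0.33, Camp from -0.56 to 0.71 and Ltf from -0.23 to 1.14, Camp was 0.054 after quantile normalization and Ltf -0.22 without G5 and Control 1. Of other genes, Fpr2 ran from -0.029 to 0.43, Mpo from -0.11 to 0.63 and Sprr1a from -0.26 to 2.90 when 1 library was left out, Sprr1a was -0.55 without G5 and Control 1, and Krt5 was 0.0075 with weights. For single genes 583 values under alternatives kept direction and side of the threshold, 43 lost it, 19 gained it and 15 changed sign. Most of the 583 were of genes not called in the main fit, which had no call to lose. Mmp8, Il1r2, Clec4e, C5ar1, Slpi and Ncr1 lost their call whenever a library other than G5 was left out. Il1f9 lost it without Control 2, without G3 and without G4, Cd14 without Control 2 and without G3, and Cxcl12 without Control 2. Camp, at 2 to 10 fragments per control library, and Trem1, at 23 to 44, are the members that depth limits most. A count test with edgeR was not run, because the deposited counts are scaled and those of the PBLI libraries were not used here. No paired analysis was possible because the PBLI columns carry no replicate numbers.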
